A study of Mus musculus with 58 samples.

Results

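Acute-phase proteins are secreted proteins whose blood levels change in inflammation, and 9 of their genes were followed here in skeletal muscle of mice carrying human pancreatic tumours. The 9 genes were chosen by name: Lcn2, Serpina3n, Saa3, Lbp, Saa1, Saa2, Orm1, Hp and Cp. Each had a probe set with its symbol in the platform annotation, so all 9 were measured, among 23185 named genes. Total RNA from 2 muscles, the tibialis anterior of the leg and the diaphragm, was hybridised to Affymetrix arrays, 1 muscle sample per array, and the values are log2 expression.

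The hosts were adult female NSG mice, an immunodeficient strain without mature T, B and NK cells that keeps macrophages and neutrophils. PDX mice (patient-derived xenograft) were implanted with pancreatic ductal adenocarcinoma resected from cachectic patients, and sham mice had the operation without a tumour. Tissue was taken once the tumour-bearing animals were severely cachectic or the tumour exceeded 3 cm, so the arrays show an end stage. The 4 cohorts each had their own sham group. Per muscle, cohorts 1 to 4 had 3, 3, 3 and 3 sham arrays and 3, 5, 5 and 4 PDX arrays, which gives 12 sham and 17 PDX arrays in each muscle and 58 in all. The labels do not say that every array of a group came from another mouse, so p-values reflect only how far these samples spread, which may be technical in part. Array medians lay between 3.70 and 3.86 and the median of all values was 3.78. A group mean below 3.78 is called dim below, and a called rise from a dim group is read as a lower bound. Values of different probe sets were not set against each other.

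In an acute-phase response, cytokines of the IL-6 and IL-1 families act on hepatocytes, and STAT3, C/EBP factors and NF-kB raise transcription of these genes, often together with glucocorticoids. Serum amyloids Saa1 and Saa2, the orosomucoid Orm1, haptoglobin (Hp) and ceruloplasmin (Cp) are mainly liver products. Lcn2, Serpina3n, Saa3 and Lbp can also be induced in other cells, such as macrophages, fat cells, epithelia and muscle fibres. The diaphragm lies against the liver, and Alb, the gene of the liver's albumin, was therefore read on every array.

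The RefSeq promoter table of build GRCm38.p6 matched 6 of the 9 genes, namely Lcn2, Serpina3n, Saa3, Saa1, Saa2 and Cp. Lbp, Orm1 and Hp were not matched. The 250 bases before each annotated transcript start were searched on both strands for 4 motifs of the factors named above. A start of this kind can lie inside the gene's annotated span, where another transcript begins further upstream. Of the 250 bases, 250 lay inside that span for Saa3, 201 for Saa1, 62 for Serpina3n, 121 and 250 for the 2 windows of Cp, and 0 for Lcn2 and Saa2. Bases that lie outside the gene's annotated span are printed for 3 genes, for Lcn2 and Serpina3n because they were the members called in both muscles, and for Saa2 because its window was the most like another, that of Saa1. Capitals mark a motif match, and each sequence runs 5′ to 3′ on the gene's strand. Lcn2 is on the minus strand at chr2:32387740-32387989, Serpina3n on the plus strand at chr12:104406458-104406645 and Saa2 on the plus strand at chr7:46751583-46751832.
Lcn2: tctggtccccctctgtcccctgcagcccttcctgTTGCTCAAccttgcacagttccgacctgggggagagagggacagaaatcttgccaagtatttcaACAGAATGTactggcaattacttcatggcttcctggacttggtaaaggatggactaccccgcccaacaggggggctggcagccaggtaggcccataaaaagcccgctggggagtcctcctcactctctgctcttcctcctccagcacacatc
Serpina3n: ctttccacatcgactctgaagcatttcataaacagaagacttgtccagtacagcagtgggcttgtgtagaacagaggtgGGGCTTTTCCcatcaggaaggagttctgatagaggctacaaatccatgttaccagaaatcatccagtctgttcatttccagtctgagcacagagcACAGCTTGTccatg
Saa2: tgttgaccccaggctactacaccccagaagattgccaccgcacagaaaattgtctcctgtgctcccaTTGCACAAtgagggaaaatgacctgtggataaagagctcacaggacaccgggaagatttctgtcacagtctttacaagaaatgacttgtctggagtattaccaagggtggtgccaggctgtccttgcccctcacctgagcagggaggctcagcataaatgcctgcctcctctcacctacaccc

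The C/EBP motif TTGCNNAA was found in Lcn2 with its first base at -216 from the start, in Saa3 at -99, in Saa1 at -182, in Saa2 at -183 and in 1 of the 2 Cp windows at -70. Of 32536 promoter windows of the same length, 9.57% held it. The NF-kB motif, GGGNN followed by TTTCC, was found in Serpina3n at -171, against 1.4% of all windows. The steroid receptor motif ACANNNTGT was found in Lcn2 at -152 and in Serpina3n at -76, against 5.82% of all windows. None of the 7 windows held the STAT motif TTCNNNGAA, which 7.04% of all windows held. These matches describe letters in the windows and were not tested as binding sites. The promoter windows of Saa1 and Saa2 were identical at 238 of 251 aligned columns (94.8%), against 48.5% for Saa1 and Saa3. Saa1 and Saa2 are close paralogs, whether their probe sets tell the transcripts apart was not tested, and their values are given as uncertain.

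Liver RNA differed widely between diaphragm arrays. Alb lay between 3.69 and 9.44 in the tibialis anterior and between 5.27 and 12.40 in the diaphragm. Of the 29 diaphragm arrays, 15 were above the highest tibialis anterior array, 6 sham and 9 PDX, and no diaphragm array fell between 8.05 and 9.99. The mean of 22 hepatocyte markers separated the same number of arrays, 15. In the diaphragm 20 of the 22 markers had a PDX mean above 3.78, with the marker mean ranging from 3.8 to 9.70 in sham and from 3.85 to 9.83 in PDX arrays. Between PDX and sham, 0 of 22 hepatocyte markers were called in the diaphragm with limma, and 0 had an unadjusted p under 0.05. Alb differed by -0.04 (log2, 95% interval -2.13 to 2.06), an interval too wide to show equal liver RNA. The tumour effect on the members in the diaphragm is therefore given for all arrays and for 3 ways of handling liver RNA. Skeletal muscle markers were high on all arrays, with a mean over 16 markers between 9.65 and 10.81, and pancreatic acinar markers were low, with a mean over 16 markers between 2.51 and 3.15.

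In the tibialis anterior, tumour-bearing mice had more Lcn2 and Serpina3n. Lcn2 was 7.30-fold higher (log2 difference 2.87, SE 0.47, limma adjusted p = 0.000109) and Serpina3n 4.03-fold higher (2.01, SE 0.40, adjusted p = 0.000906), each as the mean over 4 cohorts of PDX minus sham. The other 7 members were not called. The members called higher were thus 2 of 9, against 6.32% of all genes called higher and 12.8% called in either direction. The median difference was 0.47 over the 9 members and -0.005 over all genes.

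Lcn2 encodes lipocalin 2, which binds bacterial siderophores and thereby withholds iron. In the sham tibialis anterior Lcn2 read 3.82, 5.51 and 4.86 in cohort 1, 4.44, 3.98 and 4.09 in cohort 2, 4.40, 3.56 and 3.90 in cohort 3, and 3.79, 4.19 and 4.36 in cohort 4. On PDX arrays it read 7.55, 7.96 and 7.20 in cohort 1, 8.32, 5.80, 4.66, 4.47 and 5.69 in cohort 2, 11.25, 6.80, 6.43, 9.87 and 5.93 in cohort 3, and 7.61, 8.70, 5.38 and 6.40 in cohort 4. All 17 PDX arrays exceeded every sham array of their own cohort, which held for 0.216% of all genes, and 14 of 17 exceeded all 12 sham arrays. The narrowest margin was in cohort 2, where the lowest PDX array stood at 4.47 and the highest sham array at 4.44.

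Serpina3n encodes a secreted inhibitor of serine proteases related to antichymotrypsin. Its sham values in the tibialis anterior were 4.93, 5.86 and 5.52 in cohort 1, 5.16, 5.04 and 4.76 in cohort 2, 4.78, 4.35 and 4.91 in cohort 3, and 4.21, 4.69 and 4.83 in cohort 4. The PDX values were 7.51, 7.66 and 7.31 in cohort 1, 7.40, 5.53, 6.03, 4.78 and 6.43 in cohort 2, 11.07, 5.54, 6.55, 9.44 and 6.01 in cohort 3, and 6.73, 7.06, 5.85 and 6.21 in cohort 4. In 16 of 17 PDX arrays Serpina3n exceeded every sham array of the same cohort, and the exception was the PDX array at 4.78 in cohort 2. Lcn2 and Serpina3n varied together between arrays of a group, with Pearson r = 0.903 in deviations from the 8 group means over 29 arrays, given as a description.

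Saa3, a serum amyloid A made largely outside the liver, was dim in all 4 sham groups of the tibialis anterior. The 12 sham arrays ran from 2.28 to 3.63 with a median of 2.98, and the 17 PDX arrays from 2.52 to 9.57 with a median of 3.31. The mean difference was 0.82 (SE 0.42, adjusted p = 0.243), and 3 of the 4 PDX groups were dim as well. In cohort 3 the PDX arrays read 9.57, 3.15, 3.23, 6.84 and 4.42, and the cohort's own difference was 2.68 (SE 0.81, adjusted p = 0.0399). Thus 2 arrays carried most of it, and they were also the 2 highest for Lcn2 (11.25 and 9.87) and for Serpina3n (11.07 and 9.44). Their Alb read 4.52 and 4.34, within the sham range of 3.69 to 9.30. Without both, a choice made after the values were seen, Lcn2 differed by 2.45 (adjusted p = 1.98e-05), Serpina3n by 1.59 (adjusted p = 5.55e-06) and Saa3 by 0.36 (adjusted p = 0.139).

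**Figure D1:**
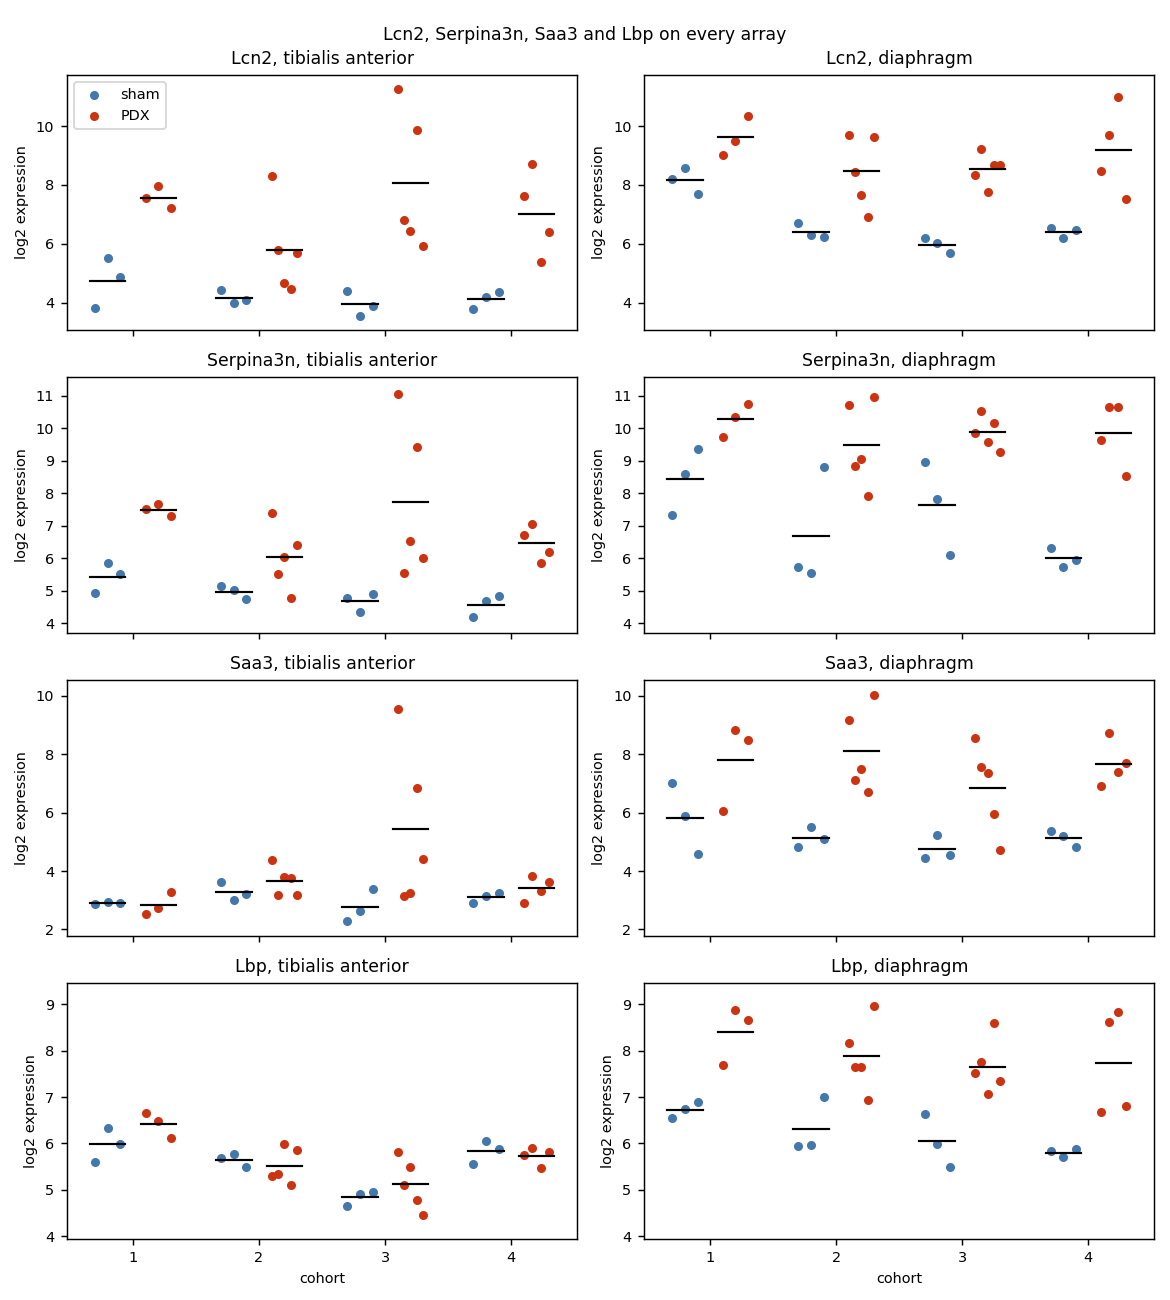
Log2 expression of Lcn2, Serpina3n, Saa3 and Lbp on each array, by cohort on the x axis, with the tibialis anterior on the left, the diaphragm on the right, sham in blue, PDX in red and group means as black bars. Lcn2 lies above the sham arrays of its cohort on all 17 PDX arrays of each muscle, while Lbp overlaps between groups in the tibialis anterior, and 2 PDX arrays of cohort 3 stand high for Saa3 there at 9.57 and 6.84.

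Lbp, which carries bacterial lipopolysaccharide to CD14, differed by 0.13 (SE 0.12, 95% interval -0.13 to 0.38, adjusted p = 0.62) in the tibialis anterior. Sham arrays ran from 4.65 to 6.34 with a median of 5.65 and PDX arrays from 4.45 to 6.65 with a median of 5.75. The groups overlapped almost completely, since 2 of 17 PDX arrays lay above all sham arrays.

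The liver-type members showed no called difference in the tibialis anterior. Hp, which binds free haemoglobin, differed by 0.55 (SE 0.21, 95% interval 0.11 to 0.98, adjusted p = 0.1), with sham arrays between 3.48 and 4.48 and PDX arrays between 3.64 and 6.36. The adjusted p of Hp was 0.0359 without the PDX replicate 3 of cohort 4, where Hp read 3.99. Hp stayed uncalled in 28 of 29 runs with 1 array left out and in all 16 other settings, where its limma adjusted p reached 0.617. Cp, the copper-carrying ferroxidase of plasma, differed by 0.23 (SE 0.12, adjusted p = 0.257), and Orm1, a plasma protein that binds drugs and lipids, by 0.11 (SE 0.18, adjusted p = 0.799). Saa1 (0.47, SE 0.43, adjusted p = 0.597) and Saa2 (0.36, SE 0.33, adjusted p = 0.579) were dim in all sham groups. On most PDX arrays Saa1 and Saa2 stayed at the sham level, with a PDX median of 1.80 for Saa1 and 2.04 for Saa2 against sham medians of 1.76 and 2.04.

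The PDX replicate 1 of cohort 3 read 6.85 for Saa1, 4.03 for Saa2, 6.13 for Hp and 6.69 for Cp with Alb at 4.52. PDX replicate 4 of cohort 4 read 5.92 for Saa1, 6.46 for Saa2 and 6.36 for Hp with Alb at 9.29. The latter array was thus near the top of the Alb range of this muscle and the former near its bottom. Another PDX array of cohort 4 with Alb at 9.44 read 1.99 for Saa1 and 2.29 for Saa2, inside or close to the sham ranges of 1.28 to 2.44 and 1.73 to 2.14.

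**Figure D2:**
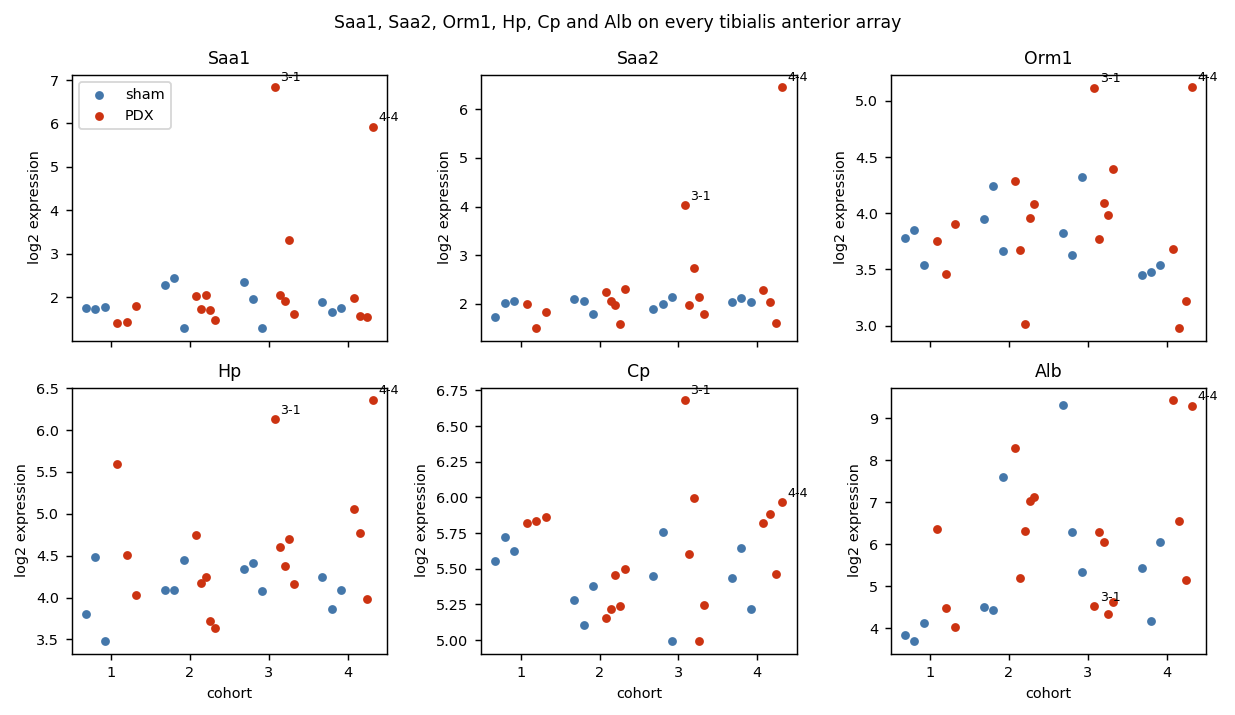
Log2 expression of Saa1, Saa2, Orm1, Hp, Cp and Alb on each tibialis anterior array, by cohort on the x axis, sham in blue and PDX in red. The label 3-1 marks PDX replicate 1 of cohort 3, high for Saa1 at 6.85 with Alb at 4.52, and 4-4 marks PDX replicate 4 of cohort 4, high for Saa2 at 6.46 with Alb at 9.29.

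In the diaphragm 4 members rose with the tumour, Serpina3n, Saa3, Lcn2 and Lbp. Serpina3n was 6.46-fold higher (2.69, SE 0.38, adjusted p = 5.18e-05) and Saa3 5.25-fold (2.39, SE 0.40, adjusted p = 0.000269). Lcn2 was 4.63-fold higher (2.21, SE 0.31, adjusted p = 3.87e-05) and Lbp 3.25-fold (1.70, SE 0.24, adjusted p = 5.43e-05). The members called higher were 4 of 9, against 5.89% of all genes called higher and 12.5% in either direction. Over the 9 members the median difference was 1.43, and over all genes it was -0.004. Whether more cells of a type or more RNA per cell raised a level cannot be told apart in RNA of whole muscle.

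Lcn2 again exceeded every sham array of its own cohort on all 17 PDX arrays, which held for 0.25% of all genes in the diaphragm. Sham arrays read 8.21, 8.58 and 7.69 in cohort 1, 6.71, 6.31 and 6.21 in cohort 2, 6.19, 6.03 and 5.68 in cohort 3, and 6.53, 6.20 and 6.48 in cohort 4. PDX arrays read 9.02, 9.48 and 10.35 in cohort 1, 9.68, 8.44, 7.67, 6.90 and 9.63 in cohort 2, 8.34, 9.22, 7.76, 8.67 and 8.67 in cohort 3, and 8.47, 9.68, 11.00 and 7.52 in cohort 4. Sham mice of cohort 1 had higher Lcn2 than every other sham array, so only 10 of 17 PDX arrays exceeded all sham arrays.

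Serpina3n in the diaphragm ran from 5.57 to 9.38 on sham arrays (median 6.83) and from 7.92 to 10.96 on PDX arrays (median 9.86). Its sham arrays spread more than those of Lcn2 within a cohort, for example 5.72, 5.57 and 8.81 in cohort 2, where the highest of them had Alb at 12.40 and the other two at 7.37 and 7.0. In 16 of 17 PDX arrays it exceeded every sham array of its cohort.

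Saa3 read 7.0, 5.90 and 4.58 on the sham arrays of cohort 1, 4.82, 5.51 and 5.09 in cohort 2, 4.43, 5.25 and 4.56 in cohort 3, and 5.36, 5.21 and 4.83 in cohort 4. PDX arrays read 6.05, 8.83 and 8.48 in cohort 1, 9.18, 7.11, 7.49, 6.72 and 10.04 in cohort 2, 8.55, 7.56, 7.35, 5.96 and 4.73 in cohort 3, and 6.91, 8.72, 7.41 and 7.70 in cohort 4. In 15 of 17 PDX arrays Saa3 was above all sham arrays of the cohort, and the exceptions were the arrays at 6.05 in cohort 1 and 4.73 in cohort 3.

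Lbp on sham arrays of the diaphragm read 6.55, 6.74 and 6.89 in cohort 1, 5.94, 5.97 and 6.99 in cohort 2, 6.64, 5.99 and 5.49 in cohort 3, and 5.83, 5.70 and 5.88 in cohort 4. On PDX arrays it read 7.69, 8.87 and 8.65 in cohort 1, 8.17, 7.66, 7.66, 6.94 and 8.96 in cohort 2, 7.52, 7.76, 7.08, 8.60 and 7.34 in cohort 3, and 6.67, 8.62, 8.84 and 6.81 in cohort 4. Lbp had the smallest fold of the 4 called members in the diaphragm, yet 14 of 17 PDX arrays lay above all 12 sham arrays.

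The other 5 members were not called over all diaphragm arrays. Saa1 differed by 1.43 (SE 0.74, adjusted p = 0.251), Saa2 by 0.96 (SE 0.71, adjusted p = 0.48), both with dim sham groups in cohorts 2 to 4, and Hp by 0.86 (SE 0.67, adjusted p = 0.512). For both serum amyloids 1 array weighed heavily, the PDX replicate 3 of cohort 4, at 10.97 for Saa1 and 11.49 for Saa2 where the next of its group stood at 3.47 and 3.53. Without it Saa1 differed by 0.93 (adjusted p = 0.305) and Saa2 by 0.42 (adjusted p = 0.631). Cp differed by 0.49 (SE 0.34, adjusted p = 0.437) and Orm1 by 0.09 (SE 0.85, adjusted p = 0.971). Their standard errors were larger than those of Lbp and, for all but Cp, than those of the 4 called members. The 95% interval of Orm1, from -1.65 to 1.84, leaves room for a rise or a fall of over 3-fold.

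**Figure D3:**
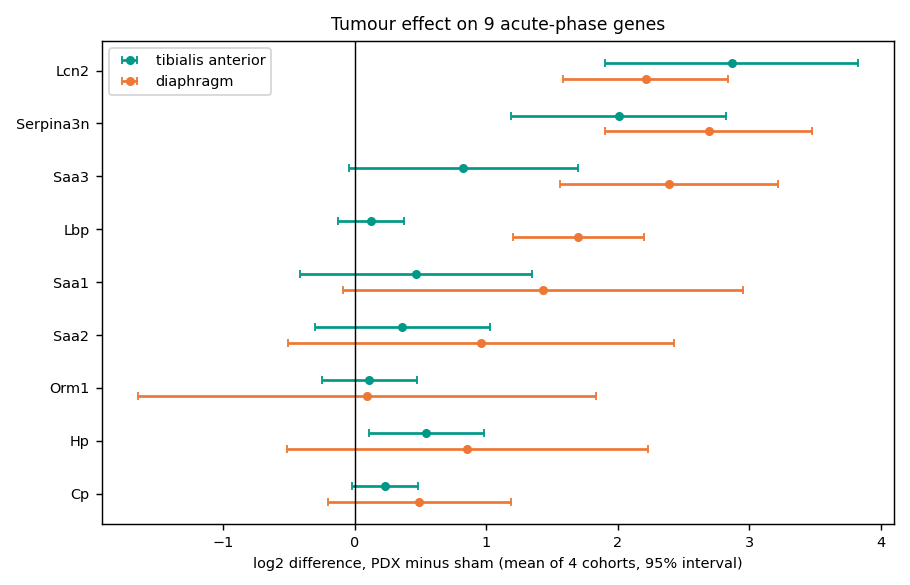
Log2 difference of PDX minus sham for the 9 members, as the mean over 4 cohorts with its 95% interval, in the tibialis anterior (green) and the diaphragm (orange). Lcn2 and Serpina3n lie clear of 0 in both muscles, Saa3 and Lbp in the diaphragm, and the interval of Orm1 in the diaphragm runs from -1.65 to 1.84.

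The size of the tumour effect in both muscles was compared by a test of the difference itself, over all 58 arrays. Lbp rose more in the diaphragm, by 1.57 (SE 0.28, adjusted p = 0.000155), the only member called, against 3.66% of all genes called higher and 6.33% either way. The difference of Lbp was 1.63 (adjusted p = 5.46e-05) with Alb as a covariate, 1.62 (adjusted p = 1.4e-05) with the mean of the hepatocyte markers and 1.84 (adjusted p = 0.00119) without the 15 diaphragm arrays of high Alb. Saa3 also differed by 1.57 but with a larger error (SE 0.61, adjusted p = 0.128), and most of its groups in the tibialis anterior were dim. Saa3 stayed uncalled in 14 of 16 alternative settings and in 57 of 58 runs with 1 array left out. Its limma adjusted p was 0.142 with Alb as a covariate (difference 1.47) and 0.118 with the hepatocyte mean (1.52). Without the arrays of high Alb its difference was 1.47. The runs that called Saa3 were those without cohort 3 (difference 2.29, adjusted p = 0.00303) and with array weights (adjusted p = 0.0204). The third left out the cohort 3 PDX array at 9.57 in the tibialis anterior (difference 1.83, adjusted p = 0.0163). The difference of Lcn2 was -0.66 (95% interval -1.85 to 0.54, adjusted p = 0.63) and that of Serpina3n 0.68 (-0.49 to 1.85, adjusted p = 0.601). Neither interval excludes a difference between the muscles of over 2-fold.

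Per cohort, Lcn2 in the tibialis anterior differed by 2.84, 1.61, 4.10 and 2.91 in cohorts 1 to 4, and in the diaphragm by 1.46, 2.06, 2.57 and 2.76. Serpina3n differed by 2.06, 1.05, 3.04 and 1.89 in the tibialis anterior and by 1.85, 2.80, 2.25 and 3.86 in the diaphragm. Lbp in the diaphragm was the most even of these, at 1.67, 1.58, 1.62 and 1.93, and Saa3 there differed by 1.96, 2.97, 2.09 and 2.55. All these cohort differences were positive. Adjusted within a cohort over all genes, Lcn2 (adjusted p = 0.00494), Serpina3n (0.0128) and Saa3 (0.0399) passed in cohort 3 of the tibialis anterior, where 3.89% of all genes were called higher. In the diaphragm Serpina3n (0.0369) and Saa3 (0.0359) passed in cohort 2, with 2.21% of all genes higher, Lcn2 (0.0278) in cohort 3, with 0.604%, and Lcn2 (0.0442) and Serpina3n (0.0299) in cohort 4, with 0.0647%. The limma F test for unequal cohort effects called 0 of 9 members in either muscle, 0 at an unadjusted p under 0.05, against 0.0129% of all genes in the tibialis anterior and 0.00431% in the diaphragm. The lowest adjusted p was 0.761 for Saa3 in the tibialis anterior.

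Alb set the members apart in the diaphragm. With group means removed, the slope on Alb was 0.69 for Orm1 (SE 0.10, adjusted p = 2.06e-05), 0.55 for Hp (SE 0.07, adjusted p = 1.29e-05), 0.25 for Cp (SE 0.05, adjusted p = 0.000428) and 0.44 for Saa1 (SE 0.12, adjusted p = 0.0187), in log2 units per log2 unit of Alb. These 4 of 9 members compare with 4.72% of all genes with a called positive slope. Saa2 had a slope of 0.38 (SE 0.12, adjusted p = 0.0527). The slopes of Lcn2 (0.06, SE 0.06), Serpina3n (0.16, SE 0.07), Saa3 (-0.10, SE 0.08) and Lbp (0.08, SE 0.05) had adjusted p-values of 0.543, 0.143, 0.465 and 0.268. On the mean of the hepatocyte markers, whose slope was called positive for 6.76% of all genes, Orm1, Hp, Cp and Saa1 passed again. Serpina3n (0.24, SE 0.07, adjusted p = 0.0176) and Saa2 (0.49, SE 0.12, adjusted p = 0.00632) also passed there. Lbp (adjusted p = 0.0535), Lcn2 (0.222) and Saa3 (0.459) did not.

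Because the diaphragm arrays fell into 2 classes of Alb, correlations were computed within each class, on values with treatment means removed, a split made after the values were seen. A family of 36 relations was tested, 9 members on Alb and on the hepatocyte mean in each class. Among the 15 arrays of high Alb, Pearson r with Alb was 0.839 for Orm1, 0.882 for Hp and 0.849 for Cp (permutation p = 0.00074, 0.00071 and 0.00081, adjusted p = 0.00486 for each), and Spearman rho was 0.814, 0.825 and 0.843 (permutation p = 0.00185, 0.0011 and 0.00095, adjusted 0.0111, 0.00792 and 0.00792). Leaving out the 2 arrays farthest from the median of Alb gave r of 0.730, 0.847 and 0.764. For Saa1 the class gave r = 0.483 (permutation p = 0.0978, adjusted 0.168), rho = 0.596 (p = 0.0376, adjusted 0.104) and r = 0.268 without the 2 farthest arrays. On the hepatocyte mean Saa1 passed in the same class, with r = 0.641 (permutation p = 0.0126, adjusted 0.0455) and rho = 0.693 (p = 0.00921, adjusted 0.0332). Its r there was 0.572 without the 2 arrays farthest from the median of the hepatocyte mean.

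Among the 14 arrays of low Alb, Orm1 gave r = 0.270 (permutation p = 0.374, adjusted 0.442) and rho = 0.345 (p = 0.251, adjusted 0.335), Hp r = -0.531 (p = 0.0581, adjusted 0.123) and rho = -0.420 (p = 0.145, adjusted 0.227), and Cp r = -0.475 (p = 0.0892, adjusted 0.161) and rho = -0.459 (p = 0.0836, adjusted 0.167). Without the 2 farthest arrays r was 0.033, -0.294 and -0.331 for these 3 genes. In the same class Lcn2 and Serpina3n were lower where Alb was higher. Their r was -0.661 and -0.680 (permutation p = 0.0123 and 0.00791, adjusted 0.0455 and 0.0407), rho -0.675 and -0.697 (p = 0.011 and 0.00779, adjusted 0.0361 and 0.0312), and r -0.650 and -0.598 without the 2 farthest arrays. On the hepatocyte mean the 15 arrays of high Alb gave r = 0.956 for Orm1, 0.961 for Hp and 0.958 for Cp (permutation p = 1e-05, 2e-05 and 1e-05, adjusted 0.00018, 0.00024 and 0.00018, of which 1e-05 is the smallest they can give), and 0.930, 0.946 and 0.939 without the 2 farthest. Their rho was 0.957, 0.918 and 0.954 (p = 1e-05, 6e-05 and 1e-05, adjusted 0.00018, 0.00072 and 0.00018). The 14 arrays of low Alb gave r = -0.649 for Lcn2 and -0.585 for Serpina3n (permutation p = 0.00938 and 0.0151, adjusted 0.0422 and 0.0493), rho = -0.723 and -0.701 (p = 0.00568 and 0.00678, adjusted 0.0292 and 0.0305), and r = -0.574 and -0.402 without the 2 farthest. Cohorts were not separated in these classes, which are too small for it, and the part of the cohorts in them was not tested.

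**Figure D4:**
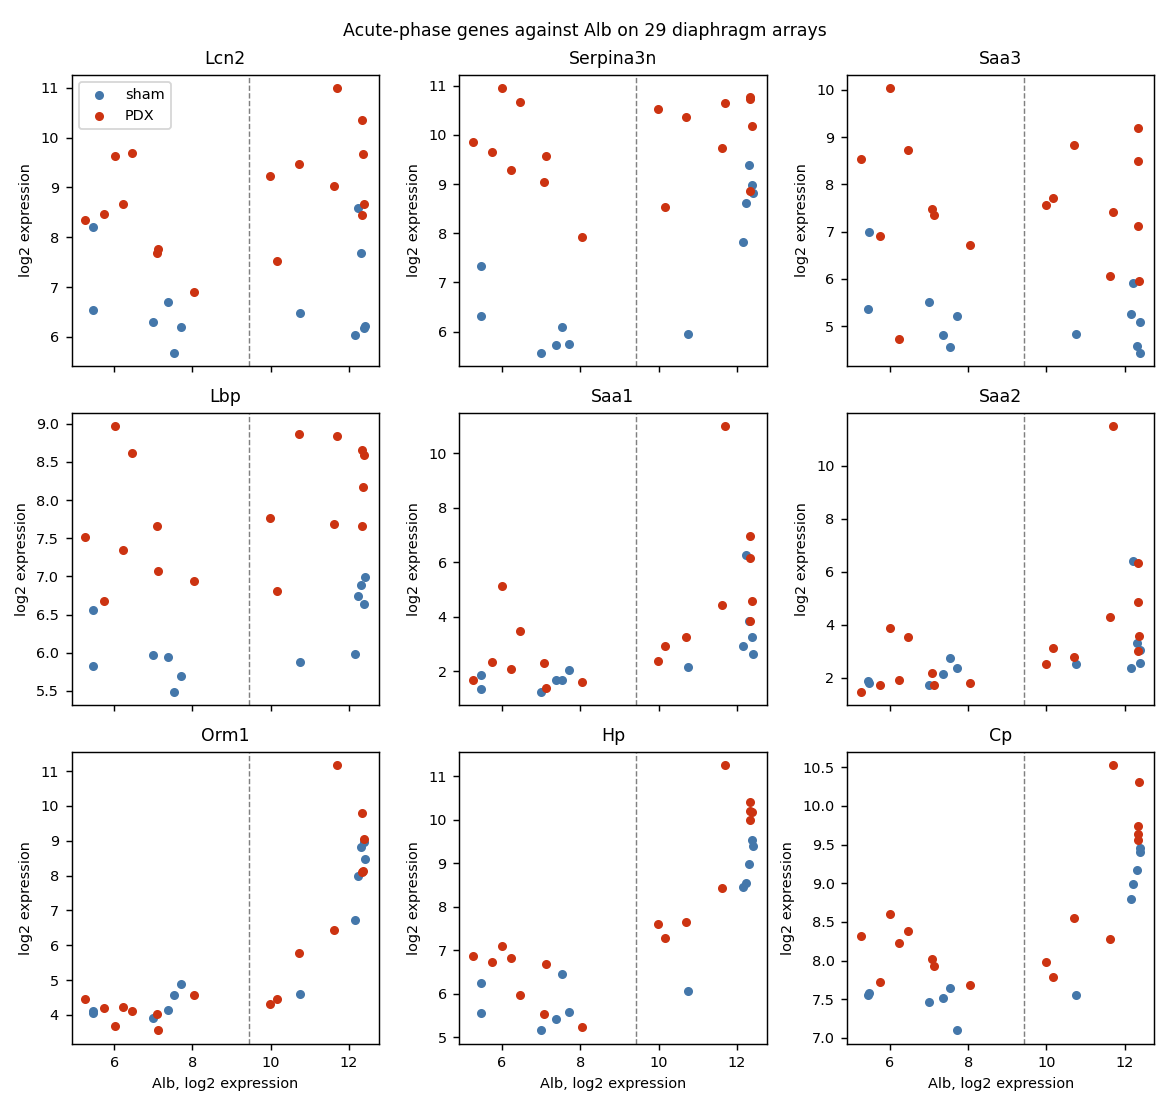
Log2 expression of each member (y axis) against log2 expression of Alb (x axis) on the 29 diaphragm arrays, sham in blue and PDX in red, with a dashed line at 9.44, the highest tibialis anterior array. Orm1, Hp and Cp climb with Alb on the 15 arrays right of the line. Left of the line Lbp runs from 5.49 to 6.55 in sham and from 6.67 to 8.96 in PDX arrays.

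The 4 rises in the diaphragm were seen with liver RNA handled in each way, with 1 call lost. With Alb as a covariate the differences were 2.21 for Lcn2, 2.70 for Serpina3n, 2.39 for Saa3 and 1.70 for Lbp, and the same 4 members were called, against 6.62% of all genes higher. With the hepatocyte mean as a covariate they were 2.24, 2.75, 2.37 and 1.73, and 7 of 9 members were called, against 6.98% of all genes. The additional calls were Saa1 (1.57, SE 0.50, adjusted p = 0.0327), Hp (1.02, SE 0.23, adjusted p = 0.00232) and Cp (0.57, SE 0.15, adjusted p = 0.00719). Orm1 (0.30, SE 0.29, adjusted p = 0.587) and Saa2 (1.08, SE 0.55, adjusted p = 0.22) were not called there.

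Leaving out the 15 arrays of high Alb left 14, with 2, 1 and 2 sham and 3, 3 and 2 PDX arrays in cohorts 2 to 4, while cohort 1 kept no PDX array and dropped out. On these arrays Serpina3n differed by 3.75 (SE 0.41, adjusted p = 0.00421), Lcn2 by 2.29 (SE 0.40, adjusted p = 0.0183) and Lbp by 1.87 (SE 0.35, adjusted p = 0.023), and 3 of 9 members were called against 1.31% of all genes higher. Saa3 differed by 2.59 (SE 0.67), as large as over all arrays, with an adjusted p of 0.0585. Serpina3n on low-Alb arrays ran from 5.57 to 7.33 in 6 sham and from 7.92 to 10.96 in 8 PDX arrays. Lbp on the same arrays ran from 5.49 to 6.55 in sham and from 6.67 to 8.96 in PDX arrays. The liver-type members gave 0.49 for Hp (SE 0.28, adjusted p = 0.406), 0.62 for Cp (SE 0.17, adjusted p = 0.0746), 0.85 for Saa1 (SE 0.49, adjusted p = 0.396), 0.04 for Saa2 (SE 0.36, adjusted p = 0.968) and -0.24 for Orm1 (SE 0.20, adjusted p = 0.583). Cp on low-Alb arrays ran from 7.10 to 7.65 in sham and from 7.68 to 8.60 in PDX arrays, and its difference did not pass the adjustment. The share of all genes whose sham and PDX ranges separate on these arrays was not computed. The 3 pairs of ranges are therefore given only as a description.

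**Figure D5:**
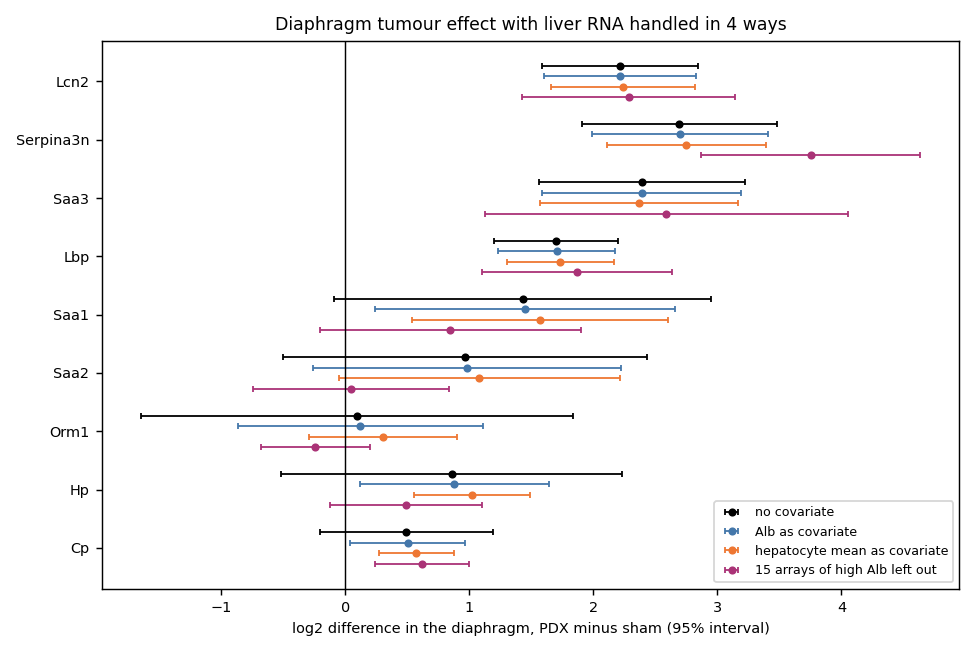
Log2 difference of PDX minus sham in the diaphragm with its 95% interval for the 9 members, over all arrays (black), with Alb as covariate (blue), with the hepatocyte mean as covariate (orange) and without the 15 arrays of high Alb (purple). Lcn2, Serpina3n, Saa3 and Lbp stay above 0 in all 4, and the intervals of Orm1, Hp and Cp narrow from all arrays to the hepatocyte covariate.

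Without a tumour the members already differed between the muscles. In sham mice 7 of 9 members were higher in the diaphragm, against 15.2% of all genes called higher and 39.7% in either direction. Hp was higher by 3.00 (SE 0.55, adjusted p = 1.94e-05), Cp by 2.76 (SE 0.28, adjusted p = 3.79e-11), Lcn2 by 2.49 (SE 0.45, adjusted p = 1.5e-05) and Serpina3n by 2.28 (SE 0.44, adjusted p = 4.66e-05). Saa3 (2.20, SE 0.47, adjusted p = 0.00018), Orm1 (2.17, SE 0.68, adjusted p = 0.00927) and Lbp (0.64, SE 0.21, adjusted p = 0.0138) were also higher, with Saa3 and, through 2 dim sham groups, Orm1 as lower bounds, and Alb itself differed by 4.00 (SE 0.88, adjusted p = 0.00031). These sham arrays are the same ones that the tumour comparisons rest on.

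With Alb as a covariate Lcn2 (2.25), Serpina3n (1.80), Saa3 (2.70) and Cp (1.91) were called, 4 of 9 against 12.2% of all genes higher, and Orm1 was at -0.10 (SE 0.55, adjusted p = 0.923). Without the 15 arrays of high Alb, Lcn2 (2.45), Saa3 (2.49), Hp (1.68) and Cp (2.08) were called, 4 of 9 against 11.9%, and Serpina3n was not (adjusted p = 0.0585). On the arrays left, Alb itself was still 1.29 higher in the sham diaphragm than in the sham tibialis anterior. The part of liver RNA in the members' differences there was not tested. With the hepatocyte mean as a covariate Lcn2 (2.16), Serpina3n (1.63), Saa3 (2.51), Hp (1.04) and Cp (1.82) were called, 5 of 9 against 13.3%. Lcn2, Saa3 and Cp thus passed in all 3, Serpina3n with both covariates, and Hp, at 1.09 with an adjusted p of 0.0536 under the Alb covariate, in the other two. Over all sham arrays 14 of 14 mesothelial markers, genes of the lining of body cavities, and 15 of 18 macrophage markers were higher in the diaphragm, against 15.2% of all genes. So were 20 of 22 hepatocyte, 11 of 15 fibroblast, 10 of 14 adipocyte and 6 of 16 endothelial markers, with 1 fibroblast and 1 adipocyte marker lower. Of 22 neutrophil markers 2 were higher and 3 lower. The part of these cells in the higher levels of the members was not tested.

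A list of other acute-phase proteins was read in the same way. Of its 29 measured genes, 1 rose and 1 fell in the tibialis anterior, and 5 rose and 0 fell in the diaphragm, with medians of 0.12 and 0.20. Here and for the lists that follow, the background is the 6.32% of all genes called higher in the tibialis anterior (12.8% in either direction) and the 5.89% in the diaphragm (12.5% in either direction). The complement gene C4b rose in both, by 0.61 (SE 0.17, adjusted p = 0.0155) and 0.92 (SE 0.20, adjusted p = 0.0031). Serping1, the C1 inhibitor, fell by 0.36 in the tibialis anterior (adjusted p = 0.0162) and rose by 0.69 in the diaphragm (adjusted p = 0.000132). Chil1, a chitinase-like protein, and Cd14, the receptor to which LBP passes lipopolysaccharide, rose in the diaphragm by 1.24 (adjusted p = 0.00642) and 0.96 (adjusted p = 0.000721).

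Upstream of these genes, 10 of 30 cytokines, receptors and transcription factors rose and 0 fell in the tibialis anterior, against 6.32% of all genes higher, and 12 rose and 1 fell in the diaphragm, against 5.89%. Il6ra, the IL-6 receptor, rose by 1.67 in the tibialis anterior (SE 0.22, adjusted p = 5.98e-06) and by 0.56 in the diaphragm (SE 0.08, adjusted p = 5.43e-05). Osmr, the oncostatin M receptor, rose by 0.90 and 1.2, Stat3 by 0.65 and 0.67, and Socs3, the feedback inhibitor induced by STAT3, by 0.82 and 1.34. These 3 genes had adjusted p-values of 1.32e-05, 0.0133 and 0.0325 in the tibialis anterior and of 1.76e-06, 5.83e-06 and 7.82e-06 in the diaphragm. Cebpd rose by 1.64 (adjusted p = 1.14e-05) and 0.70 (adjusted p = 0.000951), and Cebpb rose by 0.67 in the tibialis anterior (adjusted p = 0.00259) and differed by 0.08 in the diaphragm (SE 0.10, adjusted p = 0.726). In the diaphragm the largest differences of this list were Il1r1, the IL-1 receptor (1.42, adjusted p = 0.00011), Socs3, Osmr and Bcl3, an NF-kB cofactor (0.88, adjusted p = 0.00296). Of 20 genes induced by glucocorticoids, which include Lcn2, Orm1 and Hp, 15 rose in the tibialis anterior and 8 in the diaphragm, against the same 6.32% and 5.89% of all genes, among them Fkbp5 by 1.86 and 1.53 (adjusted p = 3.12e-06 and 3.62e-05).

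Of 17 receptors and partners of the members, 3 rose and 3 fell in the tibialis anterior, against 12.8% of all genes called in either direction, and 5 rose and 1 fell in the diaphragm, against 12.5%. Slc22a17, a receptor for lipocalin 2, differed by -0.16 (SE 0.07, adjusted p = 0.127) and 0.03 (SE 0.08, adjusted p = 0.887). Cd163, the macrophage receptor for haptoglobin bound to haemoglobin, rose by 0.29 (adjusted p = 0.0166) and 1.09 (adjusted p = 4.11e-05), and Hmox1, which breaks down haem, by 1.30 (adjusted p = 0.0115) and 1.25 (adjusted p = 0.00499). Tfrc, the transferrin receptor of iron uptake, fell by 1.51 in the tibialis anterior (adjusted p = 2.85e-06) and by 0.98 in the diaphragm (adjusted p = 0.000314).

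Markers of other cells moved with the groups in both muscles. In the diaphragm 15 of 18 macrophage markers rose and 0 fell, against 5.89% of all genes higher, and their mean ran from 5.13 to 5.91 in sham and from 5.63 to 7.03 in PDX arrays. In the tibialis anterior 1 rose and 4 fell, with means of 4.37 to 4.97 and 4.20 to 4.78. In the difference between the muscles 13 of 18 macrophage markers were called higher in the diaphragm, and so were 12 of 15 fibroblast markers, with 0 lower in both. The share of all genes called higher there was 3.66%. Saa3 and Lbp were called in the diaphragm and not in the tibialis anterior, but of these 2 only Lbp was called in the difference. The part of macrophages or fibroblasts in their values was not tested. Neutrophil markers, which include Lcn2 and Hp, rose in 5 of 22 in the tibialis anterior and 2 of 22 in the diaphragm. The shares of all genes were 6.32% and 5.89%. Lcn2 itself was among the risers in each muscle, and in the diaphragm the only other was Stfa2l1. The mean of the 22 markers ran from 2.67 to 2.96 in sham and from 2.82 to 3.90 in PDX arrays of the tibialis anterior. In the PDX mean of that muscle 4 of 22 were above 3.78. S100a8 and S100a9, main neutrophil genes, rose there by 0.33 (adjusted p = 0.0219) and 0.84 (adjusted p = 0.000114), and Stfa2l1 rose by 0.94 (adjusted p = 8e-04) there and by 0.48 in the diaphragm (adjusted p = 0.0414). S100a8 ran from 1.22 to 1.85 in sham and from 1.26 to 2.80 in PDX arrays, and S100a9 from 2.38 to 3.14 and from 2.99 to 5.0. Stfa2l1 ran from 1.06 to 1.69 and from 1.25 to 4.03 there, and in the diaphragm from 1.21 to 1.71 and from 1.39 to 3.10. S100a8, S100a9 and Stfa2l1 were thus dim in sham, and their rises are read as lower bounds. Fibroblast markers fell in 15 of 15 in the tibialis anterior and rose in 5 and fell in 2 in the diaphragm, and 4 of 14 mesothelial markers rose in the diaphragm. Of 16 endothelial markers, 6 rose in the tibialis anterior, among them Selp by 1.01 (adjusted p = 0.000686). There 1 fell, Kdr, at -0.87 (adjusted p = 0.000154). In the diaphragm 7 endothelial markers rose, among them Vcam1 by 1.05 (adjusted p = 0.000472), and 1 fell. Their mean ran from 5.66 to 5.96 in sham and from 5.68 to 6.19 in PDX arrays of the tibialis anterior, and from 5.86 to 6.29 and from 6.02 to 6.83 in the diaphragm. Of 14 adipocyte markers, 2 rose and 1 fell in the tibialis anterior, and 0 rose and 2 fell in the diaphragm. Their parts in the members' values were not tested.

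Genes whose pattern was most like a called member are given as a description, by Pearson r over the 29 arrays of a muscle, of all Alb levels, in deviations from the 8 group means. For Lcn2 these were Map1lc3b (0.900), Igfbp3 (0.882) and Tbrg1 (0.876) in the tibialis anterior and Il1r1 (0.816), Vcam1 (0.791) and Srsf6 (0.786) in the diaphragm. Serpina3n was most like Ranbp9 (0.914), Slc39a14 (0.907), a zinc and iron importer, and H6pd (0.902) in the tibialis anterior, and Igfbp4 (0.853), Hsd11b1 (0.848) and again Slc39a14 (0.821) in the diaphragm. In the diaphragm Saa3 was most like Syk (0.899), Lgmn (0.852) and Actr3 (0.850), and Lbp like Bmp1 (0.948), Ctsc (0.933) and Il13ra1 (0.915). Among the members, Saa1 and Saa2 gave r = 0.966 and Orm1, Hp and Cp 0.939 to 0.950 in the diaphragm, where Saa3 gave -0.207 to 0.047 with these 5.

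The muscles were also compared over 17 PDX pairs of equal cohort and number, with cohort means removed. The labels do not say that equal numbers mark 1 mouse, so this asks only whether equal numbers vary together. Pearson r was 0.159 for Lcn2 (permutation p = 0.537), 0.291 for Serpina3n (p = 0.159), 0.251 for Saa3 (p = 0.484) and -0.059 for Lbp (p = 0.808). Spearman rho was 0.093, 0.448, 0.301 and -0.071 (permutation p = 0.737, 0.0726, 0.302 and 0.781), and without the 2 farthest pairs r was 0.058, 0.579, 0.088 and -0.122. Over the 9 members tested the lowest adjusted p was 0.715 for r and 0.552 for rho.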

How the data were processed

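Total RNA of tibialis anterior and diaphragm was labelled with biotin and read on 58 Affymetrix arrays. The deposited values are log2 expression that the authors obtained by RMA. Per the submitters' processing notes they used affy, version 1.36.1, and R, version 2.15.1. The genome build behind the probe sets is not given in the sources used here. RMA normalises all arrays together, so a shift shared by most genes is removed. Of 25206 probe sets, 23185 had 1 named gene in the platform annotation and were tested, and 2021 were left out. The number of arrays limits the precision.

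The 9 members, the gene lists and the tests were chosen with earlier results of these data known. Group means of cohort by treatment were fitted with limma 3.58.1 in R 4.3.3, each muscle alone, and PDX minus sham was averaged over the 4 cohorts with equal weights. Comparisons between muscles used 1 fit of 16 group means over 58 arrays. P-values were two-sided, adjusted by Benjamini-Hochberg over all genes and called under 0.05. Liver RNA was handled by Alb as a covariate (Alb itself then not tested), by the mean of 22 of 26 listed hepatocyte markers, or by leaving out diaphragm arrays with Alb above 9.44. Correlations used permutation tests of 100000 resamples within groups (scipy 1.17.1). A relation to Alb planned over all 29 arrays is replaced by relations within the Alb classes. In the diaphragm the planned one, which pools both classes, passed for Orm1, Hp, Cp, Saa1 and Saa2. Pearson r was 0.826, 0.835, 0.756, 0.610 and 0.539 (permutation adjusted p = 0.00018, 0.00018, 0.00126, 0.0027 and 0.00367). The motifs and the 2 added alternatives were chosen after the values were seen.

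Beside the members, up to 4 genes with the largest difference among those called are named per list and muscle (the 2 with the smallest p where none was called), plus 9 genes chosen by name and the 3 genes most like each called member. On simulated data of 23185 genes, the tibialis anterior fit recovered 98% of changes of log2 1 and 99% of log2 2, the diaphragm fit 97% and 100%, and the fit of the difference between muscles 95% and 100%. The changed genes were drawn at random, with normal noise of equal spread in sham and PDX. These rates therefore do not apply to members of wide spread, such as Saa1 in the diaphragm (SE 0.74), and do not make uncalled members unchanged.

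Replicate numbers were checked as pairs. Of 29 pairs of tibialis anterior and diaphragm with equal cohort, treatment and number, 4 had a correlation of deviations over 0.1 (median 0.017), so the numbers were not taken to pair the samples.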

Additional observations from a re-analysis of the deposited data

Results flagged for a closer look

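Each member was tested in each group of 4 to 10 arrays for a sample far from the others. Groups of 3 arrays, among them all sham groups, were too small to test. Of the 54 tests 8 found such a sample, where chance flags about 1 in 20 of independent tests. The members vary together and share arrays, so the 8 cannot be set against that rate. Of the 8, 2 arrays of the diaphragm gave 5. PDX replicate 4 of cohort 3 was highest for Cp at 10.31 (next 8.31), for Hp at 10.17 (next 7.61) and for Orm1 at 9.06 (next 4.47), with Alb at 12.38. PDX replicate 3 of cohort 4 was highest for Orm1 at 11.17 (next 4.46) and for Saa1 at 10.97 (next 3.47), with Alb at 11.70. In the tibialis anterior, PDX replicate 4 of cohort 4 was highest for Saa1 at 5.92 (next 1.99) and for Saa2 at 6.46 (next 2.29), with Alb at 9.29. There PDX replicate 1 of cohort 3 was highest for Hp at 6.13 (next 4.70), with Alb at 4.52. The part of liver RNA in these values was not tested.

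The tumour effect on Lbp differed between the muscles, by 1.57 more in the diaphragm (log2, SE 0.28, limma adjusted p = 0.000155, over 58 arrays). Lbp exceeded every sham array of its cohort on 16 of 17 PDX arrays of the diaphragm and on 7 of 17 of the tibialis anterior.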

How the results depend on the processing

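Over every alternative run, including each array left out in turn, Lcn2 and Serpina3n kept their direction and their call in both muscles, as did Lbp in the diaphragm and in the difference between muscles. In the tibialis anterior 2 of 9 members were called in every alternative, and 2 to 3 with arrays left out in turn. In the diaphragm 3 to 7 were called, with 7 under the hepatocyte covariate, and 4 with each array left out. In the difference between muscles, 2 instead of 1 were called with array weights and without cohort 3, and 1 to 2 with arrays left out. In sham mice 7 fell to 4 with the Alb covariate, to 5 with the hepatocyte mean and to 4 without the arrays of high Alb. The sham calls of Lbp and Orm1 were also lost without cohort 1 (limma adjusted p = 0.0709 and 0.079) and without cohort 3 (0.146 and 0.0528). With single arrays left out in turn the count stayed at 7. The limma F test of cohorts called 0 members throughout.

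Signs turned only in uncalled values or once liver RNA was handled. Orm1 in the diaphragm was -0.30 with array weights, -0.24 without arrays of high Alb or of high hepatocyte mean, -0.36 without cohort 4 and -0.34 to 0.47 with arrays left out. In the tibialis anterior Orm1 was -0.0048 to 0.17 with arrays left out. The muscle difference of Orm1 was 0.42 with Alb, 0.33 with the hepatocyte mean, 0.64 without cohort 3 and -0.45 to 0.36 with arrays left out, and that of Saa2 was -0.023 with array weights and -0.49 without arrays of high Alb. In sham mice Saa1 was -0.77, -0.96 and -0.24 with Alb, with the hepatocyte mean and without arrays of high Alb, Saa2 was -0.61 and -0.68 with the 2 covariates, and Orm1 -0.10 and -0.28. The causes were not tested.

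With the replicate block the tumour effect of Lcn2 was 2.86 in the tibialis anterior and 2.21 in the diaphragm, that of Lbp in the diaphragm 1.70, and the muscle difference of Lbp 1.57. The block correlation was -0.045 in the tibialis anterior, 0.029 in the diaphragm and 0.010 over both, and no call changed under the block. Of 29 tibialis anterior arrays, 13 correlated best with the diaphragm array of their own number, among the 3 to 5 of the same cohort and treatment. With so few to choose from, chance gives some such matches, and their number was not computed. The 13 matches come from the data and not from the design, and do not settle whether equal numbers mark 1 mouse. A filter on dim genes dropped Saa1 and Saa2, which have no value there, and the alternative without arrays of high Alb applies to the diaphragm only. Signal near background limits Saa1, Saa2 and, in the tibialis anterior, Saa3.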
